A study of Mus musculus with 18 samples.

Results

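Islets of mice lacking exon 2 of Cdh13 (deleted) were compared with islets of mice carrying that exon between loxP sites (floxed), all from C57BL/6 animals aged 8 weeks and fed chow. These are 6 of the 18 libraries of the series, 3 deleted and 3 floxed, taken by their labelled genotype, age and diet; the other 12 libraries hold the same genotypes at 14 weeks, on chow or after 6 weeks of high-fat diet. The loxP sites of the floxed mice leave the exon in place, and the series text calls these animals wild type. The sources used here name no Cre driver, and the deleted mice are called null, so no cell type limits the deletion as far as the labels say. Replicates carry numbers, but no label states that a different animal gave each of them; the p-values therefore measure only the spread between these samples, which may be technical.

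Cdh13 encodes T-cadherin, a cadherin without a transmembrane or cytoplasmic domain that is held on the cell surface by a glycolipid anchor and binds adiponectin, a hormone of fat cells, and low-density lipoprotein. It is best known from blood vessel endothelium, heart and skeletal muscle. An islet of Langerhans holds mostly beta cells, which secrete insulin and amylin, with alpha cells (glucagon), delta cells (somatostatin) and PP cells (pancreatic polypeptide), together with vessels, macrophages and supporting cells. The RNA of a whole islet is therefore a sum over these cells. In such bulk samples a lower level of a marker through fewer cells of a type and through less RNA per cell cannot be told apart.

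The deleted exon is shown because it is the only engineered difference between the groups that the labels give. In the mm10 annotation it lies on the plus strand at chr8:118505604-118505715 and reads as follows, with the join that its loss makes in the transcript on the next line.
Cdh13 exon 2: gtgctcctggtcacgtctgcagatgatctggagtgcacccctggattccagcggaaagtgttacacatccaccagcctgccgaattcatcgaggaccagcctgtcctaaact
Cdh13 exon 1 end joined to exon 3 start: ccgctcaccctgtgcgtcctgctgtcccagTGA
The exon is 112 bases long, which leaves a remainder of 1 after division by 3. The capitals mark the first 3 bases of exon 3, which form a stop codon directly after the 15 codons of exon 1 when exon 2 is left out.

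Cdh13 was detected at a low level in all 6 libraries. It measured 0.765, 0.778 and 0.353 FPKM (fragments per kilobase of transcript, scaled to the mapped fragments of a library) in the deleted libraries, against 1.09, 1.08 and 1.84 FPKM in the floxed libraries. Every deleted library lay below every floxed library. The difference was -0.51 on the log2(FPKM + 1) scale (SE 0.168), with an adjusted p of 0.179 from limma across all genes, and an exact two-sided permutation test gave p = 0.1, the smallest that 3 against 3 libraries allow. Over its alternatives the adjusted p lay between 0.0574 and 0.505. The values count fragments over the whole transcript, of which exon 2 is 2.96%, so RNA that lacks the exon is still counted.

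The 6 libraries were alike in the number of genes detected, the summed FPKM and the share of Ins2. FPKM is by definition scaled to the fragments of a library, and the deposited values also look rescaled between libraries, so these values do not measure depth. Between 11474 and 11586 genes reached 1 FPKM in each, the summed FPKM lay between 1070616 and 1243323, and Ins2 held 43.8 to 48.2% of that sum. Numbers of sequenced fragments were not analysed here, so the depth is unknown and no counting error can be given. The libraries did differ in how their values followed base composition. Across genes, each library's deviation from the mean of the 6 had a Spearman correlation with the GC content of the transcript of -0.217, -0.0349 and -0.248 in the deleted libraries and of -0.164, 0.423 and 0.365 in the floxed libraries. These points share libraries and transcripts, and the values describe the samples without a test. The median difference between the groups was 0.0544 in the fifth of genes lowest in GC and -0.1 in the fifth highest in GC. The part of this trend in the results was not tested, and the calls that ended with the trend removed are named with the called genes. Xist was at most 0.05 FPKM while Ddx3y, a Y-linked gene, was at 16.3 FPKM or more in every library, so all 6 had the pattern of male tissue.

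Few genes were called. Of 12234 genes tested, 67 were called at an adjusted p below 0.05, or 0.548%, with 22 higher (0.18%) and 45 lower (0.368%) in deleted islets. The median size of the difference was 0.66 for the higher genes and -0.57 for the lower ones on the log2(FPKM + 1) scale, while the median over all genes was -0.00592. Among the 67, Fgb had the largest rise and Erdr1 the largest fall. All 67 had groups that did not overlap, a property shared by 16.5% of all genes tested. The lower genes had a median transcript GC content of 56.6% and the higher ones of 45.7%, against 49.6% for all genes tested. After removal of the GC trend, an alternative chosen after seeing the data, 37 genes were called, 17 higher and 20 lower, of which 32 were among the 67.

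**Figure D1:**
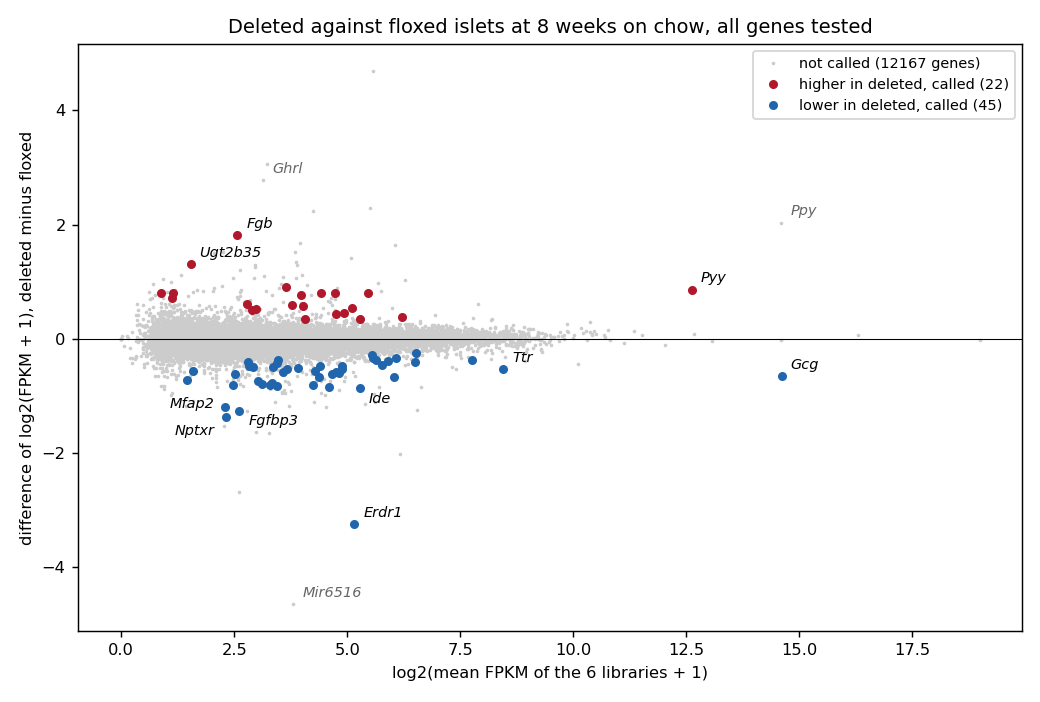
Difference between deleted and floxed islets at 8 weeks (vertical axis, log2(FPKM + 1), deleted minus floxed) against the mean level of each gene over the 6 libraries (horizontal axis, log2). Each point is a gene; red points are the 22 called higher in deleted islets and blue points the 45 called lower, while grey names mark Ppy, Ghrl and Mir6516, which were not called.

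Many of the calls ended with 1 library left out, which also leaves fewer libraries in a group. Without deleted replicate 1 there were 32 calls, without deleted replicate 2 there were 25, and without deleted replicate 3 there were 66, while without floxed replicate 1 there were 53, without floxed replicate 2 there were 16 and without floxed replicate 3 there were 28. The calls of 11 genes held whichever of the 6 libraries was left out, among them Ugt2b35 and Mat2a of the higher ones and Ide, Fgfbp3, Erdr1, Mfap2, Pdxp, Nptxr, Cryba2 and B930041F14Rik of the lower ones. For each of the other called genes, leaving out at least 1 of these libraries ended the call. A fit of only the 6 libraries called 44 genes, of which 24 were among the 67. The heat map draws 66 of the 67 genes library by library.

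**Figure D2:**
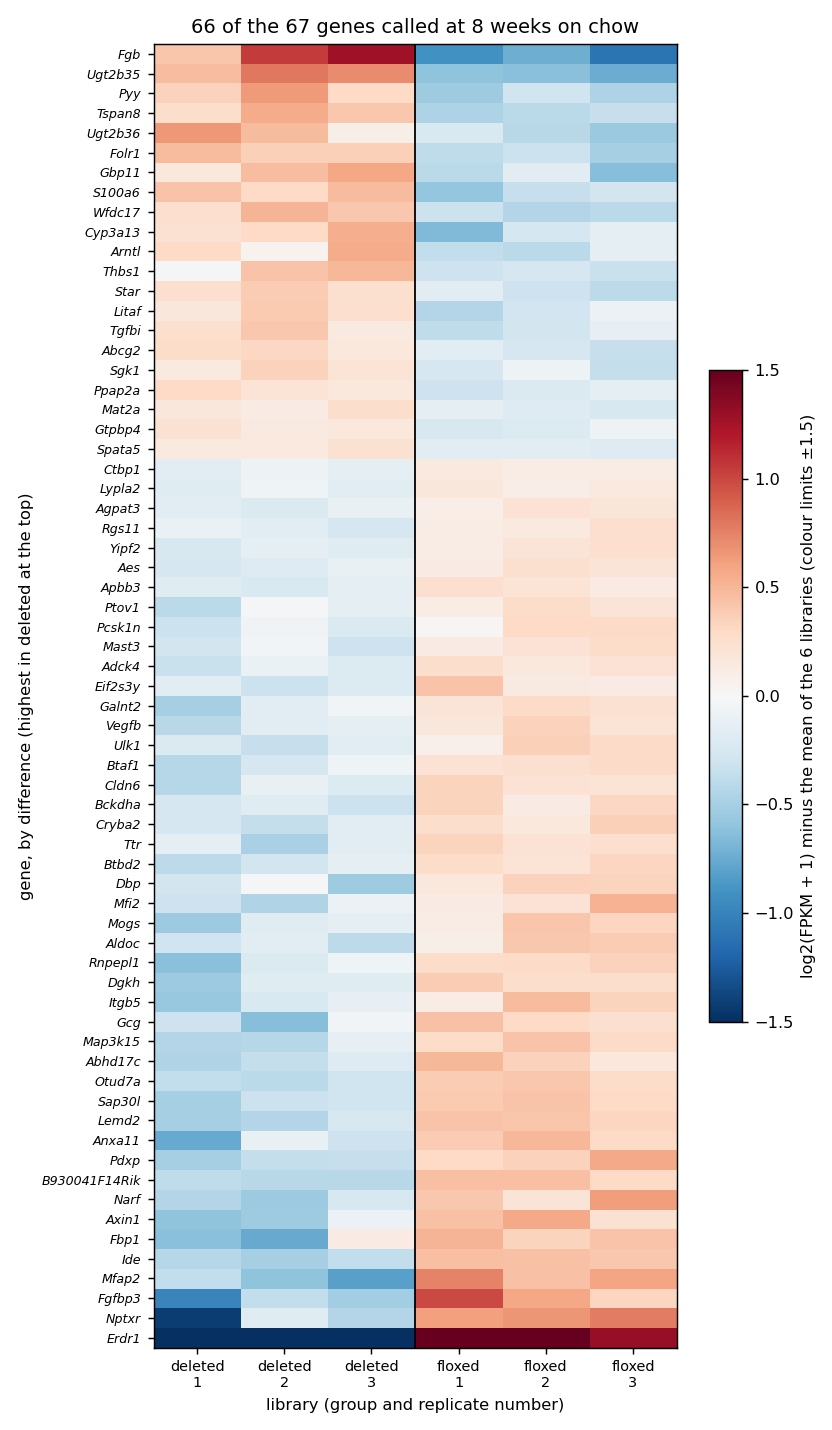
Levels of 66 of the 67 called genes in each library (rows are genes, ordered from the highest to the lowest difference; columns are the 3 deleted libraries and then the 3 floxed libraries). Colour is log2(FPKM + 1) minus the mean of the 6 libraries, red above and blue below, and values past 1.5 in either direction, as for Erdr1, share the end colour.

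The balance of the minor islet hormones differed between the genotypes: glucagon RNA was lower and peptide YY RNA higher in deleted islets, while the larger difference of pancreatic polypeptide RNA missed the threshold. Gcg, which encodes glucagon, measured 19537, 15558 and 23544 FPKM in deleted islets, against 32835, 29830 and 28484 FPKM in floxed islets. The highest deleted library lay below the lowest floxed one, and the fall of Gcg was 0.65 in log2 units (difference -0.65, SE 0.122; adjusted p = 0.0175). Pyy, which encodes a peptide made by gut endocrine cells and by several islet cell types, measured 7637, 9366 and 7399 FPKM in deleted islets, against 4137, 4885 and 4340 FPKM in floxed islets. Every deleted library was above every floxed library, with a rise of 0.86 for Pyy (SE 0.169; adjusted p = 0.0341).

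Ppy is the gene of pancreatic polypeptide. It measured 34770, 46535 and 37806 FPKM in deleted islets, against 7239, 12267 and 9985 FPKM in floxed islets. The lowest deleted library was far above the highest floxed one, and the difference was 2.04 (SE 0.45, adjusted p = 0.071). The fit takes its spread from all 18 libraries, and Ppy ran from 4321 to 16598 FPKM in deleted islets at 14 weeks on chow; with only the 6 libraries at 8 weeks the adjusted p was 0.00254, within a range of 0.00254 to 0.178 over its alternatives. The deleted islets at 8 weeks, with a mean of 39704 FPKM, also lay above every library of the other 4 groups, of which the highest was 21902 FPKM. As a share of summed FPKM, Ppy took 2.8, 4.35 and 3.52% in deleted libraries and 0.662, 1.1 and 0.902% in floxed libraries, while Gcg took 1.57, 1.45 and 2.19% in deleted libraries and 3.0, 2.68 and 2.57% in floxed libraries. Ppy thus exceeded Gcg in each deleted library, at 1.78, 2.99 and 1.61 times its level, and was at 0.22, 0.411 and 0.351 times its level in the floxed libraries. Ppy (102099931 to 102101319) and Pyy (102106676 to 102107832) are neighbours on chromosome 11 in mm10.

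Some other genes of these cell types differed in the same direction as the hormones. Of 7 tested genes listed for PP cells and PYY, 3 were called higher and 0 lower, against 0.18% and 0.368% of all genes tested. A difference above 0 was found for 5 of the 7 and below 0 for 2, with a median of 0.80. Meis2, a member that was not called, had overlapping groups, at 16.2 to 16.3 FPKM in deleted and 15.7 to 17.4 FPKM in floxed libraries. The list was drawn up with earlier results of these data known, and with quantile normalization its median was 0.44. The called members were Pyy, Tspan8, a tetraspanin membrane protein, and Folr1, a folate receptor. Tspan8 measured 49.4, 60.8 and 54.5 FPKM in deleted islets and 29.5, 30.7 and 32.1 FPKM in floxed islets, and rose by 0.81 (adjusted p = 0.0337). Folr1 measured 27.8, 25.5 and 25.5 FPKM in deleted islets and 14.9, 15.6 and 13.7 FPKM in floxed islets, and rose by 0.80 (adjusted p = 0.0455). For both genes the lowest deleted library was well clear of the highest floxed one.

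Of 10 tested alpha cell genes, 2 were called lower and 0 higher, against 0.368% and 0.18% of all genes tested. Of the 10, 8 had a difference below 0 and 2 above 0, and the median difference was -0.41. The called members were Gcg and Ttr, the gene of transthyretin, a thyroid hormone and retinol carrier that alpha cells express strongly. Ttr measured 308, 245 and 304 FPKM in deleted islets, against 431, 396 and 409 FPKM in floxed islets, and fell by 0.53 (SE 0.0968, adjusted p = 0.016). Slc38a5, an amino acid transporter of alpha cells, measured 7.14, 5.78 and 8.37 FPKM in deleted islets and 14.6, 15.9 and 12.7 FPKM in floxed islets, a difference of -0.94 without overlap that missed the threshold (adjusted p = 0.0586; 0.012 to 0.201 over its alternatives). Slc7a2, another amino acid transporter, was at -0.37 (adjusted p = 0.0586) and passed with the GC trend removed, at -0.41 (adjusted p = 0.0427).

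Several of these calls ended with 1 library left out, which also leaves fewer libraries in a group. Leaving out any of the 6 libraries at 8 weeks ended the call of Pyy, with adjusted p between 0.0592 and 0.112, and of Tspan8 and Folr1. The difference then lay between 0.76 and 0.93 for Pyy, 0.74 and 0.88 for Tspan8 and 0.75 and 0.84 for Folr1. With the GC trend removed Tspan8 was at 0.76 (adjusted p = 0.0617) and Folr1 at 0.85 (0.0518), and neither passed. The call of Gcg ended without deleted replicate 1 or 2 or floxed replicate 1 or 2, at adjusted p of 0.078, 0.0849, 0.0664 and 0.0769 in that order. Ttr was no longer called without deleted replicate 2 (adjusted p = 0.0796) or without floxed replicate 1, 2 or 3, where it lay between 0.0517 and 0.0524. With quantile normalization Pyy was at 0.44 and did not pass (adjusted p = 0.231), and Gcg was at -1.10. With only the 6 libraries Gcg did not pass (adjusted p = 0.0843), while Pyy (0.00559), Tspan8 and Folr1 (0.00289 each) and Ttr (0.0497) did.

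**Figure D3:**
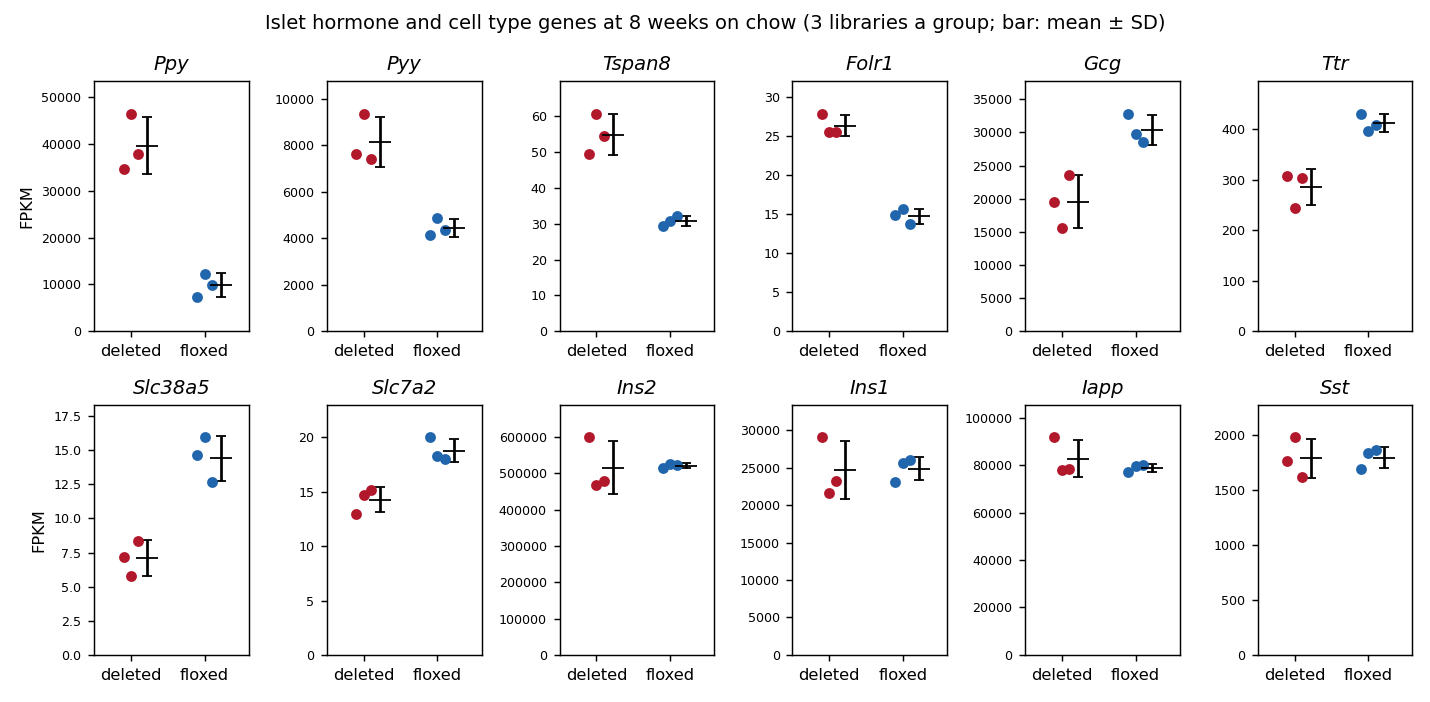
Levels of hormone and cell type genes in the 3 deleted libraries (red, left) and the 3 floxed libraries (blue, right) at 8 weeks, in FPKM on linear axes that start at 0, with mean ± SD beside the points. Ppy, Pyy, Tspan8 and Folr1 were higher and Gcg, Ttr, Slc38a5 and Slc7a2 lower in every deleted library than in any floxed library, while the points of Ins2, Ins1, Iapp and Sst overlapped.

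Beta and delta cell genes gave no calls. Of 24 tested beta cell genes, 0 were called, yet 21 had a difference below 0, against 51.5% of all genes tested, and the median was -0.09. For 4 tested delta cell genes the median was -0.02. Ins2 measured 599096, 469292 and 478311 FPKM in deleted islets and 513653, 525518 and 523780 FPKM in floxed islets (difference -0.02, adjusted p = 0.956). Ins1 was at -0.02 (adjusted p = 0.957), Iapp, the amylin gene, at 0.06 (0.798) and Sst, the somatostatin gene, at -0.01 (0.984), and all of these had overlapping groups. Among regulators of beta cell identity, Pdx1 was at -0.12 (adjusted p = 0.644) and Mafa, below 3 FPKM in every library, at -0.41 (0.645). Ucn3, a peptide of mature beta cells, was at -0.16 (0.291), and Slc2a2, their glucose transporter, at -0.18 (0.434). Glp1r, the receptor of glucagon-like peptide 1, measured 141, 202 and 209 FPKM in deleted islets and 209, 241 and 254 FPKM in floxed islets (difference -0.37, adjusted p = 0.267).

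The call with the smallest p was Ide, which encodes the insulin-degrading enzyme, a metalloprotease that also cleaves glucagon and amylin. Ide measured 26.6, 25.1 and 27.5 FPKM in deleted islets, against 49.6, 49.3 and 47.7 FPKM in floxed islets, and fell by 0.87 (SE 0.0594, adjusted p = 7.57e-08). Replicates of a genotype differed by at most a few FPKM, far less than the genotypes. A pair of its neighbours on chromosome 19 were called as well. Fgfbp3, which encodes a binding protein for fibroblast growth factors, measured 1.76, 3.22 and 2.8 FPKM in deleted islets and 9.84, 7.18 and 5.82 FPKM in floxed islets, and fell by 1.26 (SE 0.162, adjusted p = 0.000545). Btaf1, an ATPase that removes TATA-binding protein from DNA, measured 4.51, 5.23 and 6.06 FPKM in deleted islets and 7.59, 7.73 and 8.0 FPKM in floxed islets, and fell by 0.49 (adjusted p = 0.0375). In mm10, Fgfbp3 (36917550 to 36919599) lies 6 kb from Btaf1 (36926079 to 37014057), which lies 255 kb from Ide (37268743 to 37334544). The 2 other tested genes between Btaf1 and Ide, named after their values were seen, were not called: Cpeb3 was at -0.20 (adjusted p = 0.47) and March5 at 0.03 (0.867).

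Other called genes also lay within 1 Mb of the next called gene in mm10. Axin1 and Rgs11 on chromosome 17, both lower, were 7 kb apart with 2 tested genes between them. Lemd2, also lower, lay a further 978 kb away, past 13 tested genes. Ugt2b35 and Ugt2b36 on chromosome 5, both higher, were 53 kb apart. Pdxp and Nptxr on chromosome 15, both lower, were 867 kb apart with 23 tested genes between them. Btbd2 and Aes on chromosome 10, both lower, were 903 kb apart with 39 tested genes between them. Ptov1 and Dbp on chromosome 7, both lower, were 835 kb apart with 34 tested genes between them. No test of clustering along chromosomes was made.

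The largest difference among the called genes was that of Erdr1, named as an erythroid differentiation regulator, at 170010526 to 170018797 on the X chromosome (GRCm38.p6), in the repetitive region at its end where counts are uncertain. Erdr1 measured 5.82, 5.18 and 5.94 FPKM in deleted islets, against 84.9, 56.9 and 49.4 FPKM in floxed islets, and fell by 3.25 (SE 0.261, adjusted p = 3.93e-05). The deleted libraries agreed closely and none came near the floxed ones. The floxed groups of the other conditions lay below the floxed group at 8 weeks. At 14 weeks on chow Erdr1 measured 17.8 ± 6.4 FPKM in deleted and 22 ± 8.02 FPKM in floxed islets. The order was reversed on high-fat diet, with 38.1 ± 3.81 FPKM in deleted and 23.5 ± 4.24 FPKM in floxed islets. There the difference of 0.68 was not called (adjusted p = 0.118 from limma). These are means ± SD, n = 3 each. At 8 weeks Eif2s3y, a translation initiation factor gene on the Y chromosome with a close copy on the X, was also lower in deleted islets. It measured 46.6, 41.9 and 45.5 FPKM in deleted and 70.7, 57.8 and 57.4 FPKM in floxed islets (log2 difference -0.46, adjusted p = 0.0119). Another Y-linked gene, Ddx3y, was at -0.25 and did not pass (adjusted p = 0.243). Uty and Kdm5d, also Y-linked, were not called and their groups overlapped. Uty was at 6.87 to 7.77 FPKM in deleted and 6.08 to 7.75 FPKM in floxed libraries. Kdm5d was at 3.24 to 3.94 FPKM in deleted and 3.38 to 4.04 FPKM in floxed libraries.

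Mfap2, a protein of elastic microfibrils, measured 2.51, 1.99 and 1.57 FPKM in deleted islets and 6.58, 5.15 and 5.79 FPKM in floxed islets, and fell by 1.18 (adjusted p = 4.13e-05). Nptxr, the neuronal pentraxin receptor, measured 0.621, 2.84 and 2.22 FPKM in deleted islets and 5.68, 5.93 and 6.43 FPKM in floxed islets, and fell by 1.37 (adjusted p = 0.00509). Nptxr was the only call among 8 tested synapse genes, while 0.368% of all genes tested were called lower. The groups of both stood apart, although deleted replicate 1 of Nptxr was well below its fellows. Itgb5, an integrin subunit that pairs with alpha V, fell by 0.61, Cldn6, a tight junction claudin, by 0.50, and Mfi2, the iron-binding melanotransferrin, by 0.57. Vegfb, a growth factor of blood vessels, fell by 0.48. Anxa11, a calcium-dependent phospholipid-binding annexin, fell by 0.78 and was at 3.89, 6.67 and 5.65 FPKM in deleted islets and 9.78, 10.7 and 9.13 FPKM in floxed islets.

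Fbp1, which encodes the fructose-1,6-bisphosphatase of gluconeogenesis, was the only call among 13 tested genes of gluconeogenesis and carbohydrate metabolism, whose median was -0.18. Of all genes tested, 0.368% were called lower. Fbp1 measured 13.8, 12.6 and 23.9 FPKM in deleted islets and 31.6, 27.8 and 29.8 FPKM in floxed islets, and fell by 0.84 (adjusted p = 0.0416). Deleted replicate 3 lay close to the floxed range, and without it the difference was -1.11, while without any of the other 5 libraries at 8 weeks Fbp1 was not called (adjusted p between 0.1 and 0.143), nor was it with only the 6 libraries (0.206). Pdxp, a phosphatase of vitamin B6, fell by 0.81, and Bckdha, a subunit of the branched-chain ketoacid dehydrogenase, fell by 0.51. Lower too were Agpat3, which makes phosphatidic acid (0.33 lower), Lypla2, which removes palmitate from proteins, Abhd17c, a further depalmitoylase, and Adck4, a kinase-like protein of coenzyme Q synthesis. Mogs, the glucosidase that starts trimming of N-glycans, fell by 0.57, Galnt2, which starts O-glycans, by 0.47, and Yipf2, a Golgi membrane protein, by 0.37. Pcsk1n, which encodes proSAAS, an inhibitor of the prohormone convertase PC1/3, measured 70.1, 84.5 and 75.3 FPKM in deleted islets and 88.8, 108 and 107 FPKM in floxed islets, and fell by 0.40 (adjusted p = 0.0459).

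Axin1, the scaffold of the beta-catenin destruction complex, measured 5.83, 6.14 and 8.71 FPKM in deleted islets and 13, 14.3 and 11.1 FPKM in floxed islets, and fell by 0.82 (adjusted p = 0.0365). It was the only member called of 20 tested Wnt pathway genes, whose median was -0.13, while 0.368% of all genes tested were called lower. Kinases and G protein regulators among the calls were Map3k15 (-0.66), Ulk1, the starter of autophagy (-0.48), Mast3 (-0.41), Dgkh, a diacylglycerol kinase (-0.61), and Rgs11 (-0.34). The corepressors Aes and Ctbp1 fell by 0.37 and 0.25, Sap30l, of the Sin3 histone deacetylase complex, by 0.74, and the nuclear envelope gene Lemd2 by 0.78. Cryba2, a crystallin gene active in islet endocrine cells, measured 23.4, 21.6 and 24.7 FPKM in deleted islets and 33.8, 31.3 and 35.9 FPKM in floxed islets, and fell by 0.52 (adjusted p = 0.0053). Also lower were Narf, B930041F14Rik (Fndc10 in RefSeq), Otud7a, Rnpepl1, Btbd2, Ptov1 and Apbb3, with differences from -0.81 for Narf to -0.37 for Apbb3.

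Base composition moved with the calls. Of the 45 lower calls, 19 were called with the GC trend removed, and of the 22 higher ones, 13. The higher genes that did not pass were Abcg2, Cyp3a13, Folr1, Gbp11, Gtpbp4, Litaf, Sgk1, Spata5 and Tspan8, with adjusted p between 0.0518 and 0.0931. The lower ones that did not pass included Axin1 (-0.74, adjusted p = 0.0667), Fbp1 (-0.82, 0.0637), Bckdha (-0.41, 0.0563) and Dbp (-0.40, 0.106). The other lower ones were Abhd17c, Adck4, Aes, Apbb3, Btbd2, Cldn6, Ctbp1, Galnt2, Itgb5, Lemd2, Lypla2, Mast3, Mfi2, Mogs, Otud7a, Pcsk1n, Ptov1, Rgs11, Rnpepl1, Sap30l, Ulk1 and Vegfb, with adjusted p between 0.0518 and 0.442. Ide (-0.90), Fgfbp3 (-1.23), Erdr1 (-3.25), Mfap2 (-1.06), Gcg (-0.69) and Cryba2 (-0.41) passed with it.

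Of 9 tested genes of glucuronidation and drug metabolism, 3 were called higher and 0 lower, against 0.18% and 0.368% of all genes tested. All 9 had a difference above 0, with a median of 0.23, while 51.5% of all genes tested lay below 0. This list was also chosen with earlier results of these data known. Ugt2b35, an enzyme that couples steroids and drugs to glucuronic acid, measured 2.6, 3.52 and 3.25 FPKM in deleted islets, against 0.723, 0.694 and 0.556 FPKM in floxed islets, and rose by 1.31 (SE 0.137, adjusted p = 3.93e-05). Its neighbour Ugt2b36 measured 1.76, 1.45 and 0.874 FPKM in deleted islets and 0.496, 0.315 and 0.193 FPKM in floxed islets, and rose by 0.81 (adjusted p = 0.0175). The groups of both were apart, but levels were low, and reads shared between these closely similar genes could be divided between them by the authors' counting. Ugt2b34, the most abundant of the family here at 86.6 FPKM or more, was at 0.23 (adjusted p = 0.218). Cyp3a13, a cytochrome P450, rose by 0.71 (adjusted p = 0.0369), and Abcg2, an efflux pump for drugs and urate, by 0.50 (adjusted p = 0.0455); neither passed with the GC trend removed.

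Fgb, the beta chain of fibrinogen, measured 5.38, 8.89 and 10.5 FPKM in deleted islets, against 1.55, 1.89 and 1.23 FPKM in floxed islets, and rose by 1.82 (adjusted p = 0.0365), although the other fibrinogen chains stayed below the expression filter. Fga reached at most 0.0824 FPKM in deleted and was listed at 0 in floxed libraries, and Fgg reached at most 0.871 FPKM in deleted and at most 0.295 FPKM in floxed libraries. The spread of Fgb was wide within the deleted group and within the other groups, at 7.58 ± 4.41 FPKM in floxed islets at 14 weeks on chow (SD, n = 3), and the call ended without deleted replicate 2 or 3 or any floxed replicate (adjusted p between 0.0857 and 0.11). Star, the mitochondrial importer of cholesterol in steroid-making cells, rose by 0.58 (18, 19.6 and 17.7 FPKM in deleted islets and 13.2, 11.9 and 11.2 FPKM in floxed islets). Mat2a, which makes S-adenosylmethionine, rose by 0.38 (adjusted p = 0.00906), and Gtpbp4 and Spata5, which act in ribosome assembly, by 0.35 and 0.34. Ppap2a, a lipid phosphate phosphatase, rose by 0.44.

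S100a6, a calcium-binding protein of proliferating and stromal cells, measured 33.4, 30.2 and 34.3 FPKM in deleted islets and 16.0, 19.1 and 20.1 FPKM in floxed islets, and rose by 0.80 (adjusted p = 0.0416). Thbs1, the matrix glycoprotein thrombospondin-1, rose by 0.60, and Tgfbi, a collagen-binding matrix protein, by 0.53. Sgk1, a kinase induced by glucocorticoid and osmotic stress, rose by 0.46, and Litaf, an endosomal protein induced by lipopolysaccharide, by 0.54. Wfdc17, a secreted protein of activated macrophages, measured 17.1, 20.5 and 19.1 FPKM in deleted islets and 11.1, 10.2 and 10.5 FPKM in floxed islets, and rose by 0.78 (adjusted p = 0.0119). Gbp11, a guanylate-binding GTPase of the interferon response, was low and rose by 0.80 (adjusted p = 0.0455).

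The lists of macrophage, endothelial, matrix and inflammatory genes gave few calls. Over all genes tested, 0.18% were called higher, 0.368% were called lower and 51.5% had a difference below 0. Of 16 tested macrophage genes, 1 was higher and 0 lower, 15 had a difference above 0, and the median was 0.15. H2-Aa, an MHC class II chain, measured 21.4, 23.3 and 20.5 FPKM in deleted islets and 16.8, 17.5 and 13.5 FPKM in floxed islets, a difference of 0.43 that missed the threshold (adjusted p = 0.0673). Of 13 tested endothelial genes, 0 were called and 11 had a difference above 0, with a median of 0.15; Emcn, a mucin-like protein of capillary endothelium, was at 0.53 (adjusted p = 0.172) and Kdr, a receptor of VEGF, at 0.38 (0.225). Of 18 tested matrix genes, 0 were called higher and 1, Mfap2, was called lower, while 15 had a difference above 0 and the median was 0.21. Among 19 tested inflammatory genes, 0 were called and 17 had a difference above 0, with a median of 0.19. Ccl2, a chemokine that attracts monocytes, measured 7.68, 10.8 and 10.9 FPKM in deleted islets and 2.14, 6.05 and 3.01 FPKM in floxed islets (difference 1.26, adjusted p = 0.126), and Nfkbia, the NF-kB inhibitor, was at 0.37 (0.0953). The summed share of the macrophage list was 0.0393, 0.0482 and 0.0431% of FPKM in deleted libraries and 0.0415, 0.0396 and 0.0376% in floxed libraries, and that of the endothelial list 0.0156, 0.0201 and 0.0205% in deleted and 0.0137, 0.0175 and 0.0166% in floxed libraries. Both sums overlapped between the groups, and the part of cell composition in these differences was not tested.

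Glycolytic genes lay lower in deleted islets. All 16 tested had a difference below 0, against 51.5% of all genes tested, with a median of -0.29. Only Aldoc, an aldolase, was called, while 0.368% of all genes tested were called lower. Aldoc measured 8.45, 9.33 and 7.9 FPKM in deleted islets and 11.4, 14.4 and 14.2 FPKM in floxed islets, and fell by 0.58 (adjusted p = 0.0175). Pfkl, the liver phosphofructokinase subunit, measured 15.1, 19.3 and 20.5 FPKM in deleted islets and 26.9, 30.7 and 50.5 FPKM in floxed islets (difference -0.90, adjusted p = 0.0636). Aldoa, the main aldolase, measured 1071, 888 and 854 FPKM in deleted islets and 1146, 1177 and 1476 FPKM in floxed islets (difference -0.43, adjusted p = 0.0595). Floxed replicate 3 was the highest library for both and for the summed list, which took 0.247, 0.249 and 0.245% of FPKM in deleted libraries and 0.29, 0.296 and 0.374% in floxed libraries. Without that library the median of the list was -0.15, and with the GC trend removed it was -0.23. Of 14 tested targets of the hypoxia-inducible factor, 0 were called and 13 had a difference below 0, with a median of -0.32, which was -0.21 without floxed replicate 3; Bnip3, a mitophagy receptor, measured 152, 128 and 130 FPKM in deleted islets and 178, 161 and 266 FPKM in floxed islets (difference -0.53, adjusted p = 0.145).

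**Figure D4:**
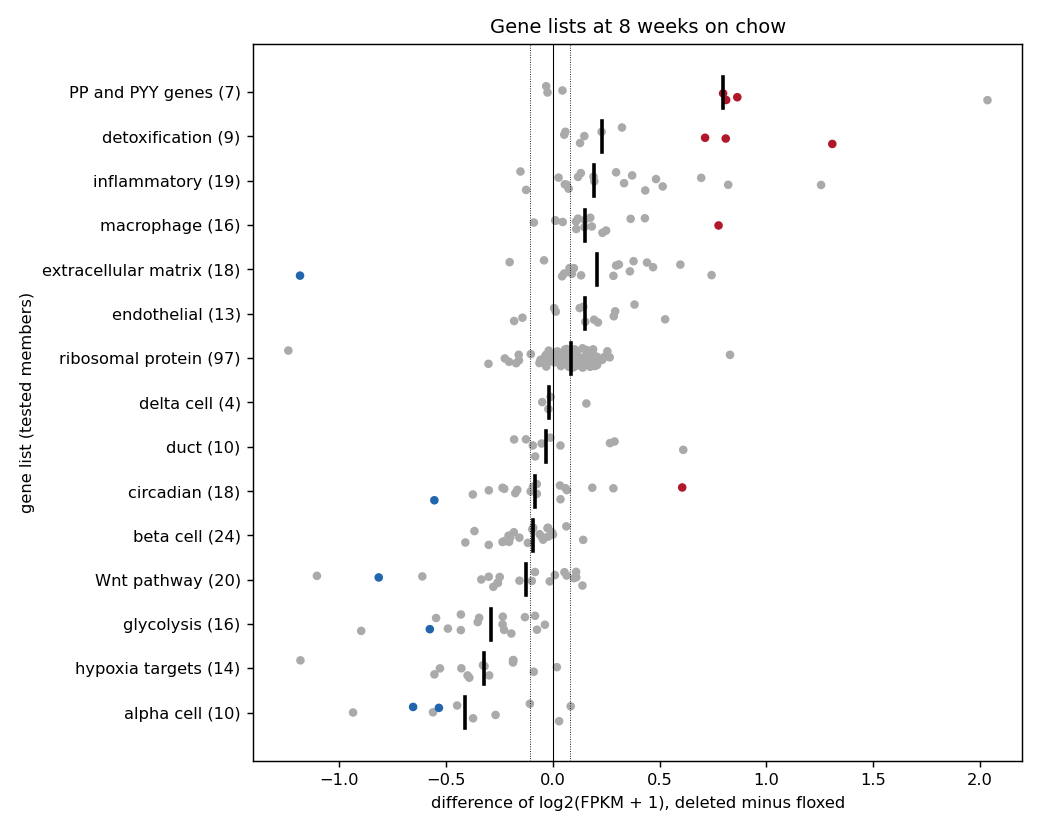
Differences of log2(FPKM + 1), deleted minus floxed, for the tested members of 15 gene lists (rows, with the number of members); each point is a gene, red if called higher, blue if called lower and grey if not called. Black bars are list medians and dotted lines the quartiles of all genes tested, -0.106 and 0.0828; alpha cell, hypoxia and glycolysis lists lie at the low end and PP and PYY genes at the high end.

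Among genes of the circadian clock, Arntl rose and Dbp fell. The clock is a loop in which Arntl (also called BMAL1) with CLOCK drives Per and Cry repressors and output genes such as Dbp, while REV-ERB and ROR receptors act on Arntl through AGGTCA-like elements. Of 18 tested clock genes, 1 was called higher and 1 lower, against 0.18% and 0.368% of all genes tested, and the median was -0.08. Arntl measured 7.17, 5.87 and 8.78 FPKM in deleted islets, against 4.12, 4.02 and 5.05 FPKM in floxed islets, and rose by 0.61 (SE 0.122, adjusted p = 0.0292). Dbp, a transcription factor that CLOCK and BMAL1 activate, measured 14.8, 17.8 and 12.2 FPKM in deleted islets, against 20.4, 23.3 and 23.1 FPKM in floxed islets, and fell by 0.55 (SE 0.111, adjusted p = 0.0274). Neither gene's groups overlapped. Per3, a repressor of the loop, measured 4.07, 4.38 and 4.15 FPKM in deleted islets and 6.13, 5.96 and 5.16 FPKM in floxed islets (difference -0.37, adjusted p = 0.0719). Tef, a relative of Dbp, was at -0.30 (adjusted p = 0.168), and Nr1d1, which encodes REV-ERB alpha, was at 0.03 (0.939). The calls of Arntl and Dbp ended without deleted replicate 1 or 3 or without floxed replicate 2, at adjusted p of 0.0789, 0.0931 and 0.115 for Arntl and of 0.078, 0.089 and 0.109 for Dbp in that order; without floxed replicate 1 Arntl was at 0.0793, and without floxed replicate 3 Dbp was at 0.0991. With only the 6 libraries neither passed (adjusted p = 0.126 for Arntl and 0.106 for Dbp). The hour at which islets were collected is not given in the sources used here, so its part in these values was not tested.

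A start region of Arntl is shown because the gene was called and the letters AGGTCA occur in it. It is the RefSeq window from 250 bases before to 50 after an annotated start on the plus strand, chr7:113207261-113207560 in GRCm38.p6, with the only AGGTCA match on either strand in capitals, at position 282.
Arntl start region: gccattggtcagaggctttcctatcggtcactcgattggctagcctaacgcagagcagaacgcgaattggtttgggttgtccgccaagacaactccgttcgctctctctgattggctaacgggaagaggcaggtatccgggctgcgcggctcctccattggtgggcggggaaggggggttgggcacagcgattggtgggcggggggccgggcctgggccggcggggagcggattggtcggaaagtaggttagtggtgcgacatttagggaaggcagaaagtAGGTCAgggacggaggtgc
AGGTCA or its complement TGACCT occurs in 16.3% of 32851 such windows of 300 bases, so the match is a description of the sequence. The window of another annotated Arntl start, chr7:113207215-113207514, ends before this match and holds no AGGTCA on either strand. No AGGTCA was found in the windows of Dbp, Per3 and Tef, while the window of Nfil3, the other gene scanned, held 1.

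Partners and relatives of T-cadherin gave no calls. Of 13 tested cadherins and catenins, 0 were called and the median was 0.01; Ctnnb1, which encodes beta-catenin, was at 0.11 (adjusted p = 0.415), and Cdh2, N-cadherin, was at 0.11 (0.501). Of 11 tested genes of adiponectin and lipoprotein binding, 0 were called and the median was -0.06. Adipor2, an adiponectin receptor, was at 0.25 (adjusted p = 0.416) and Lrp8, a lipoprotein receptor, was at -0.37 (0.124). Adipoq, the adiponectin gene itself, was listed at 0 in all 6 libraries.

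Acinar enzyme genes, from the digestive tissue around islets, varied between single libraries more than between genotypes. Their summed share was 0.163, 0.0353 and 0.00546% of FPKM in deleted libraries and 0.0118, 0.0287 and 0.0171% in floxed libraries, so the deleted group held both the highest and the lowest library. Of 19 tested, 0 were called, and the median difference of 0.98 became -0.02 without deleted replicate 1 and 2.12 without deleted replicate 3.

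Among genes that were not called, the largest differences without overlap between the groups were found for a mixture of short RNAs, peptides and signalling genes. Ghrl, which encodes ghrelin, measured 3.12, 10.2 and 30.7 FPKM in deleted islets, against 2.78, 0.187 and 0 FPKM in floxed islets (difference 2.78, adjusted p = 0.399). The deleted libraries spanned a wide range, and the lowest of them was close to the highest floxed one. Wnt4, a Wnt ligand of islets, measured 30.7, 27.0 and 32.4 FPKM in deleted islets, against 73.4, 74.3 and 51.7 FPKM in floxed islets (difference -1.10, adjusted p = 0.124). Ankrd37, a hypoxia target, was at -1.18 (adjusted p = 0.0763), Gna12, a G protein subunit, at -1.10 (0.168), and Cryab, a small heat shock protein, at 1.10 (0.259). Mir6516 was listed at 0 in all deleted libraries and at 41.8, 18.3 and 17.9 FPKM in floxed libraries. Snora81 was at 1.30 (adjusted p = 0.695) and Mir546 at 2.29 (0.704); FPKM of genes this short is unstable.

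The genotype effect at 8 weeks was set against that at 14 weeks on chow and on high-fat diet, whose libraries are separate. The 67 genes were chosen on the 8-week values, so only the values from the later libraries are new here. At 14 weeks on chow, 39 of the 45 lower genes and 8 of the 22 higher ones kept their sign. Over both directions 70.1% kept it, against 51.6% of all genes tested. On high-fat diet 24 of the 45 lower genes and 17 of the 22 higher ones kept their sign, or 61.2% over both directions, against 50.2% of all genes tested. In the same direction, 3 were called again at 14 weeks on chow, where 14 genes were called in all (0.114%): Ide, Fgfbp3 and Star. On high-fat diet, where 1312 genes were called (10.7%), 13 were called again in the same direction and 5 in the opposite one.

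Differences between the ages were tested by the interaction. Across all genes, 24 differed (0.196%) between 8 and 14 weeks on chow, 18 with a more positive effect at 8 weeks (0.147%) and 6 with a more negative one (0.049%), and 12 of the 24 were among the 67. Between 8 weeks and high-fat diet 603 differed (4.93%), 310 more positive (2.53%) and 293 more negative (2.39%) at 8 weeks, and 26 were among the 67. Ugt2b35 measured 0.661 ± 0.3 FPKM in deleted and 0.824 ± 0.105 FPKM in floxed islets at 14 weeks on chow, but 5.33 ± 0.47 FPKM in deleted and 1.79 ± 0.343 FPKM in floxed islets on high-fat diet (SD, n = 3 each). The difference at 8 weeks exceeded that at 14 weeks on chow by 1.46 on the log2 scale, while the high-fat diet groups again stood apart. Arntl had the opposite order at 14 weeks, with 5.71 ± 0.476 FPKM in deleted and 8.14 ± 0.564 FPKM in floxed islets at 14 weeks on chow, and 5.62 ± 0.77 FPKM in deleted and 6.85 ± 0.514 FPKM in floxed islets on high-fat diet (SD, n = 3 each). Gcg measured 41027 ± 5172 FPKM in deleted and 25040 ± 2460 FPKM in floxed islets on high-fat diet (SD, n = 3 each), the reverse of the order at 8 weeks, and the effects differed by -1.36 (8 weeks minus high-fat diet). Mfap2 stood at 5.73 ± 0.987 FPKM in deleted and 6.35 ± 0.288 FPKM in floxed islets at 14 weeks on chow (SD, n = 3 each), and the effects differed by -1.05 (8 weeks minus 14 weeks).

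**Figure D5:**
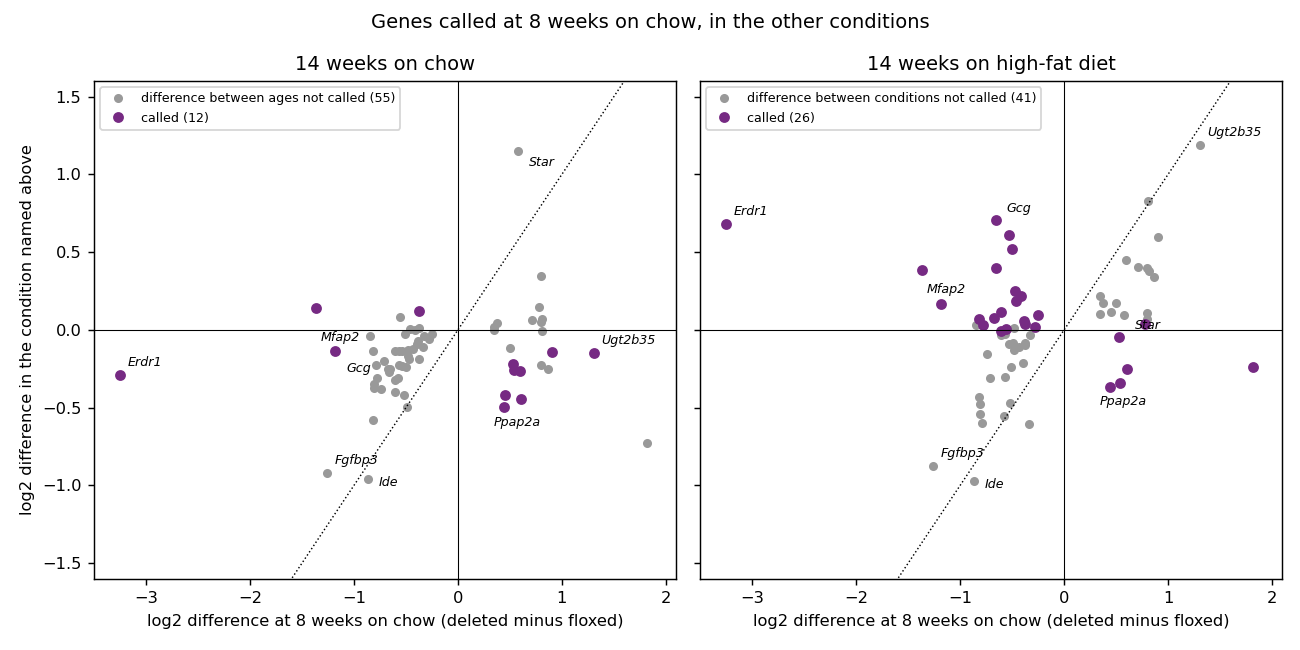
Genotype differences (log2, deleted minus floxed) of the 67 genes called at 8 weeks, with the 8-week value on the horizontal axis and the value at 14 weeks on chow (left panel) or on high-fat diet (right panel) on the vertical axis. Purple points are the 12 and 26 genes whose effect differed from the 8-week effect by the interaction test, and the dotted line marks equal effects; Ide and Fgfbp3 lie near it in both panels.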

How the data were processed

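Total RNA of isolated islets was extracted with a miRNeasy kit, copied with SMART-Seq HT and made into Nextera libraries, per the labels' protocols; this preparation does not mark strand, so overlapping genes on opposite strands cannot be told apart. For every library the authors deposited a table of FPKM by gene symbol; no label names the unit, which follows from the use of Cufflinks and the range of the values. The submitters' processing notes name Cufflinks 2.2.1, TopHat2 2.0.13, SAMtools 0.1.19 and Bowtie2 2.2.3, with the build mm10; which annotation was counted is not given in the sources used here. Set against the genes' geometric means, the 6 libraries had median ratios of 1.0037 to 1.0067, so the values look rescaled between libraries.

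Of the 24346 symbols, those reaching 1 FPKM in 3 or more of the 18 libraries entered a fit of log2(FPKM + 1) with limma 3.58.1 (R 4.3.3) with 6 group means over all 18 libraries and trended, robust variances. P-values were adjusted over all 12234 genes by the Benjamini-Hochberg method; a gene was called below 0.05. The pseudocount of 1 understates the fold change of low genes. The model was tested on simulated data with independent noise for each gene and library. That setting holds no trend shared by genes of a library, such as that with GC content, so it does not cover one. Sequences and transcript GC content were read from GENCODE vM21 and RefSeq tables. Named are fixed hormone and beta cell genes, every called gene except 1 that is not reported here, the 10 largest differences without overlap among the others, and up to 4 members of each list with the smallest p. The members and lists were chosen with earlier results of these data known. Lists were summarised with pandas 2.3.3 in python 3.11.15 and plotted with matplotlib 3.10.9.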

Additional observations from a re-analysis of the deposited data

Results flagged for a closer look

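Each gene below was called at 8 weeks and had a genotype effect there that differed from the effect in another condition, by the interaction in the same limma fit (adjusted p below 0.05 over all genes). The values are the effect at 8 weeks (deleted minus floxed) minus the effect in the other condition, on the log2(FPKM + 1) scale. The genes were selected on the 8-week effect, which favours a larger value at 8 weeks.

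Against 14 weeks on chow, the effect at 8 weeks was more positive for 8 genes, among them by 1.46 for Ugt2b35, 1.05 for Arntl, 0.94 for Ppap2a, 0.87 for Sgk1, 0.86 for Thbs1, 0.80 for Litaf and 0.74 for Tgfbi. It was more negative for 4 genes, with values of -2.96 for Erdr1, -1.51 for Nptxr, -1.05 for Mfap2 and -0.49 for Yipf2. Ppap2a was called in both, higher by 0.44 at 8 weeks and at -0.50 at 14 weeks on chow (adjusted p = 0.0311).

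Against high-fat diet, the effect at 8 weeks was more positive for 6 genes: by 2.06 for Fgb, 0.88 for Litaf, 0.86 for Arntl, 0.81 for Ppap2a, 0.74 for Wfdc17 and 0.57 for Tgfbi. Among endocrine, surface and matrix genes it was more negative for Gcg (-1.36), Ttr (-1.14), Mfap2 (-1.35), Nptxr (-1.76) and Cldn6 (-1.02). Among regulators it was more negative for Map3k15 (-1.06), Axin1 (-0.88), Lemd2 (-0.81), Dgkh (-0.72), Mast3 (-0.63), Dbp (-0.56), Aes (-0.41), Ctbp1 (-0.34) and Ptov1 (-0.44). The others were Erdr1 (-3.93), Eif2s3y (-0.64), Abhd17c (-0.75), Galnt2 (-0.72), Rnpepl1 (-0.59) and Lypla2 (-0.30). Age and diet both differ in this comparison and cannot be told apart.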

How the results depend on the processing

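The 67 calls at 8 weeks became 25 with no filter on low values (3 between ages), 406 with sample quality weights (182 between ages and 1032 against high-fat diet), 44 with only the 6 libraries, 42 without trended and robust variances and 37 with GC correction; the causes were not tested. Leaving out each of the 18 libraries gave 16 to 168 calls, 4 to 41 between ages and 371 to 686 against high-fat diet. Of the higher and lower calls, 32.8% were higher as reported, 43.3% with quantile normalization and 45.9% with GC correction. The calls of 9 genes held in every alternative that tested them, among them B930041F14Rik, Cryba2, Erdr1, Ide and Pdxp, in all 28, and Ugt2b35, Fgfbp3 and Mfap2, which were not tested under the filter at a mean of 5 FPKM. Across genes, same-numbered libraries did not deviate together (r = 0.051, -0.059 and 0.041). Whether equal numbers share a batch that touches only some genes was not tested. With the replicate block 64 genes were called, 53 of them shared with the 67. Small differences changed sign: Ins2 was at 0.00 and Iapp at 0.00 with quantile normalization, Sst at 0.02 and Iapp at 0.00 with quality weights, Ins2 at 0.02 and Sst at 0.06 with GC correction. With 1 library left out, Ins1 ranged from -0.15 to 0.06, Ins2 from -0.14 to 0.04, Sst from -0.09 to 0.06, Iapp from -0.01 to 0.11, March5 from -0.02 to 0.09 and Nr1d1 from -0.05 to 0.15. Depth is unknown, so whether low genes such as Cdh13 could have been called with more fragments cannot be said.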

Other observations

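Housekeeping and stress programmes gave no calls. Of 97 tested ribosomal protein genes, 0 were called and the median difference was 0.09, which was 0.01 without deleted replicate 1. For 24 genes of the unfolded protein response the median was -0.01, for 23 cell cycle genes 0.02 and for 80 genes of oxidative phosphorylation 0.03. Of 24 genes of granules and exocytosis, 0 were called and 18 had a difference below 0, against 51.5% of all genes tested, with a median of -0.07.

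A few genes near the threshold bear on neurotransmitters and antioxidants. Gad1, which makes GABA, measured 42.7, 39.3 and 45.1 FPKM in deleted islets and 74.5, 49.4 and 54.6 FPKM in floxed islets, a difference of -0.46 (adjusted p = 0.0694 from limma). Gpx3, a secreted glutathione peroxidase, measured 286, 303 and 365 FPKM in deleted islets and 391, 409 and 377 FPKM in floxed islets, a difference of -0.31 (adjusted p = 0.0776). Neither gene's groups overlapped. Gpx3 went against most of the antioxidant list. Of its 19 tested genes, 0 were called, 15 had a difference above 0 and 4 below 0, with a median of 0.09. Of 4 tested genes of red blood cells, 0 were called and the median was 0.55; Hbb-b2, a beta globin, reached at most 1.25 FPKM in deleted and at most 0.178 FPKM in floxed libraries (difference 0.82, adjusted p = 0.0719).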
